A study of Oryctolagus cuniculus with 9 samples.

Results

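CCNB1, CDK1, TYMS, NCAPG, NUSAP1 and OIP5 were examined across the RNA sequencing libraries of rabbit knee cartilage. They are 6 of the 14870 genes listed in the deposited tables, and each was found by its symbol in 1 row of both tables. The 6 genes had been selected on their measured values in these same 9 libraries, so their levels and differences are given here as a description with their spread, and no p-value is given for them. OIP5 had far higher levels in both defect groups than in healthy cartilage, NUSAP1 was highest in untreated defects, CCNB1 was lower in untreated defects, and NCAPG, TYMS and CDK1 had levels that overlapped between healthy and defect tissue.

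The tissue came from New Zealand white rabbits that were 4 to 5 months old at surgery, when a full-thickness defect was drilled into the trochlear groove of both knees, the channel of the femur along which the kneecap glides. The right defect received a CLCS scaffold, a disc of collagen functionalized with chondroitin sulphate that had a diameter of 5 mm and a height of 1 mm, and the left defect was left empty. Polyadenylated RNA was sequenced from 3 healthy, 3 untreated and 3 CLCS samples, the defects having been excised 12 weeks after surgery. No genotype is given for any group. The labels call the healthy samples cartilage from undamaged areas, and a scheme of the study draws them from the femoral condyle rather than the groove, so the site in the joint and the presence of a defect cannot be told apart. The same scheme draws 3 rabbits, with treated right groove, untreated left groove and healthy condyle, so samples of different groups may share a rabbit. The labels do not say that the samples of a group came from separate animals, so the p-values below measure the spread between these samples.

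Cell division begins with the copying of DNA, which needs a supply of nucleotides, and proceeds to mitosis when a B-type cyclin activates its kinase. Condensin complexes then pack the chromosomes, spindle microtubules attach to them through the kinetochore on each centromere, and the centromere is rebuilt after division by loading of the histone CENP-A. Chondrocytes of mature articular cartilage seldom divide, whereas repair tissue is populated by cells that have proliferated after injury. Transcripts of most of these genes are made mainly in dividing cells, so their level in a piece of tissue depends on how many cells divide and on how much RNA each of them holds. These bulk samples cannot tell fewer cells of a type from less RNA per cell.

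The values below are normalized reads, which are reads counted on a gene divided by the scaling factor of its library. Between 724986 and 1226408 reads were recovered per library over all listed genes, and this total of counted reads, rather than the much larger number of sequenced fragments, sets the precision. The gene ENSOCUG00000023467, which has no symbol in the tables, took 1.49% of the reads in untreated replicate 3 and 49.4% in CLCS replicate 3, with 17.8% to 31.4% in the other 7 libraries. Summed chondrocyte markers, 8 of 12 being listed, lay at 8011 to 10934 normalized reads in healthy tissue, 730 to 9511 in untreated defects and 9512 to 26691 in CLCS defects, the value of 730 belonging to untreated replicate 3. COMP, CNMD, PRG4 and CHAD of that list were not listed by symbol. The cartilage collagen COL2A1 averaged 7817 ± 878 normalized reads in healthy tissue, 4445 ± 4192 in untreated defects and 14529 ± 9531 in CLCS defects (SD, n = 3 each). It made up most of the chondrocyte sum in every library. Of the other markers listed, ACAN, SOX9, HAPLN1, COL11A1 and CILP had lower means in CLCS than in healthy tissue. COL9A1 and MATN3 had higher ones, MATN3 with at most 3.74 normalized reads in any library. ACAN averaged 469 in healthy, 218 in untreated and 385 in CLCS tissue.

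**Figure D1:**
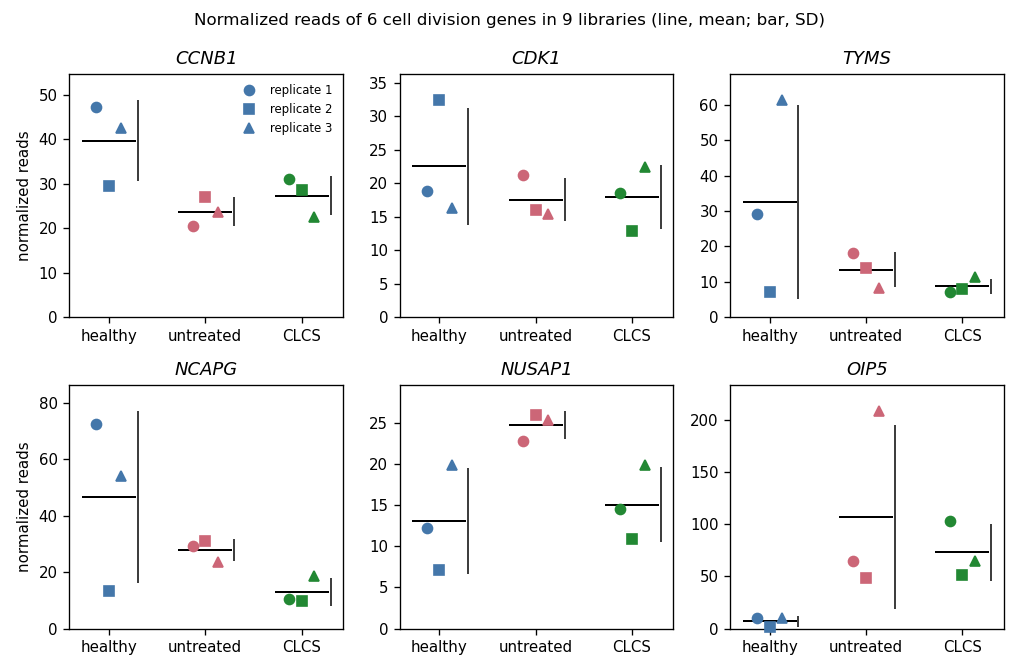
Normalized reads (vertical axis, linear from 0) of the 6 cell division genes in the 3 healthy, 3 untreated and 3 CLCS libraries. Points are libraries with the replicate number as the symbol, horizontal lines are group means and vertical bars are 1 SD; OIP5 lies at 10.4 or below in healthy tissue and at 48.0 or above in both defect groups, and NUSAP1 lies at 22.8 to 26 in untreated defects.

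CCNB1 (ENSOCUG00000004340) encodes cyclin B1, the regulatory subunit that drives cells into mitosis. It had 47.1, 29.4 and 42.5 normalized reads in healthy replicates 1 to 3, 20.5, 27.0 and 23.6 in the untreated replicates, and 31.0, 28.5 and 22.4 in the CLCS replicates. All untreated libraries lay below all healthy libraries, whereas CLCS replicate 1 lay above healthy replicate 2 and the CLCS libraries overlapped with both other groups. The means were 39.7 ± 9.17, 23.7 ± 3.26 and 27.3 ± 4.42 in healthy, untreated and CLCS tissue (SD, n = 3 each). In order of mean the level was therefore lowest in untreated and highest in healthy tissue, and the neighbours untreated and CLCS differed by less than 1 SD of the CLCS group. On the scale of log2(normalized reads + 1), the untreated group differed from healthy by -0.70 (SE 0.31) and the CLCS group by -0.51 (SE 0.30).

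CDK1 (ENSOCUG00000002858) encodes the kinase that cyclin B1 activates. It had 18.8, 32.5 and 16.3 normalized reads in the healthy replicates, 21.3, 16.0 and 15.4 in the untreated replicates and 18.6, 12.8 and 22.4 in the CLCS replicates. The ranges of all 3 groups overlapped, and healthy replicate 2 was the highest of all 9 libraries. The means were 22.5 ± 8.71, 17.6 ± 3.22 and 17.9 ± 4.84 in healthy, untreated and CLCS tissue (SD, n = 3 each), so no pair of neighbouring groups differed by more than the healthy SD. The log2 difference from healthy was -0.29 (SE 0.35) in untreated and -0.29 (SE 0.36) in CLCS defects, and leaving out healthy replicate 2 brought the ratio to the healthy mean to 1 in untreated and 1.02 in CLCS defects. The reads of CCNB1 per read of CDK1 ran from 0.906 in healthy replicate 2 (29 and 32 reads) to 2.61 in healthy replicate 3 (47 and 18 reads). With so few reads counting error is part of this spread, and a change of the ratio was not tested.

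TYMS (ENSOCUG00000008667) encodes thymidylate synthase, which makes the thymidine nucleotide needed for DNA replication. It had 29.2, 7.10 and 61.4 normalized reads in healthy replicates 1 to 3, 18.1, 14.0 and 8.16 in the untreated replicates, and 7.23, 7.87 and 11.2 in the CLCS replicates. Healthy replicate 3 was the highest of all 9 libraries and healthy replicate 2 the lowest, so the healthy group spanned both defect groups. Its healthy reads of 31, 7 and 68 varied 24.1 times as much as counting alone gives (variance over mean, scaled for library size), against 2.19 times in untreated and 0.449 times in CLCS tissue. The means of 32.6 ± 27.3, 13.4 ± 5.004 and 8.77 ± 2.13 (SD, n = 3 each) placed healthy above untreated and CLCS tissue, with neighbouring groups closer than the larger of their SDs. The log2 difference from healthy was -0.85 (SE 0.73) in untreated defects and -1.37 in CLCS defects, the latter without an SE since TYMS had too few reads there to pass the filter. The ratios to the healthy mean of 0.412 and 0.269 were 0.740 and 0.483 without healthy replicate 3, and without it the log2 difference in untreated defects was -0.18.

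NCAPG (ENSOCUG00000006792) encodes a HEAT-repeat subunit of condensin I, 1 of the complexes that pack mitotic chromosomes. It had 72.6, 13.2 and 54.2 normalized reads in the healthy replicates, 29.1, 31.0 and 23.6 in the untreated replicates, and 10.3, 9.84 and 18.7 in the CLCS replicates. All CLCS libraries lay below all untreated libraries, and the healthy libraries lay on both sides of the untreated group because replicate 2 was low. The means were, in the order healthy, untreated and CLCS, 46.7 ± 30.4, 27.9 ± 3.87 and 12.9 ± 4.97 (SD, n = 3 each). Healthy and untreated tissue differed by less than the healthy SD, whereas the log2 difference of CLCS from untreated tissue was -1.10 (SE 0.32). The difference from healthy was -0.43 (SE 0.61) in untreated and -1.53 (SE 0.62) in CLCS defects, and without healthy replicate 1 the former was 0.04.

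NUSAP1 (ENSOCUG00000003277) encodes a protein that binds and bundles spindle microtubules near the chromosomes. It had 12.2, 7.10 and 19.9 normalized reads in the healthy replicates, 22.8, 26 and 25.4 in the untreated replicates, and 14.5, 10.8 and 19.9 in the CLCS replicates. Every untreated library lay above every healthy and every CLCS library, and the healthy and CLCS ranges overlapped. The means were 13.1 ± 6.43, 24.7 ± 1.67 and 15.1 ± 4.58 in healthy, untreated and CLCS tissue (SD, n = 3 each), the neighbours healthy and CLCS differing by less than either SD. The log2 difference from healthy was 0.97 (SE 0.39) in untreated defects and 0.26 (SE 0.41) in CLCS defects, and CLCS differed from untreated tissue by -0.72 (SE 0.29). Without healthy replicate 2 the CLCS difference from healthy was -0.09.

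OIP5 (ENSOCUG00000003274) encodes Opa-interacting protein 5, known as MIS18BETA, a subunit of the MIS18 complex that prepares centromeres for new CENP-A. It had 10.4, 1.01 and 9.94 normalized reads in healthy replicates 1 to 3, 64.6, 48.0 and 208.5 in the untreated replicates and 103, 51.2 and 64.7 in the CLCS replicates. Both defect groups lay above every healthy library and overlapped with each other, and untreated replicate 3 stood far above the rest. The means were 7.11 ± 5.28, 107 ± 88.3 and 73.1 ± 27.1 (SD, n = 3 each), which is 15.1 times the healthy mean in untreated and 10.3 times in CLCS defects, the neighbours CLCS and untreated differing by less than the untreated SD. The log2 difference from healthy was 3.80 (SE 0.81) in untreated and 3.49 (SE 0.68) in CLCS defects, and CLCS differed from untreated tissue by -0.30 (SE 0.57). Without healthy replicate 2, which had 1 read, the means were 10.5 and 7.20 times the healthy mean. Without untreated replicate 3 the untreated mean was 7.92 times the healthy mean and the log2 difference of CLCS from untreated tissue was 0.32. The 3 healthy libraries held 23 OIP5 reads in all (95% Poisson interval 14.6 to 34.5), against 360 (324 to 399) in untreated and 204 (177 to 234) in CLCS tissue. These intervals cover counting error only.

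**Figure D2:**
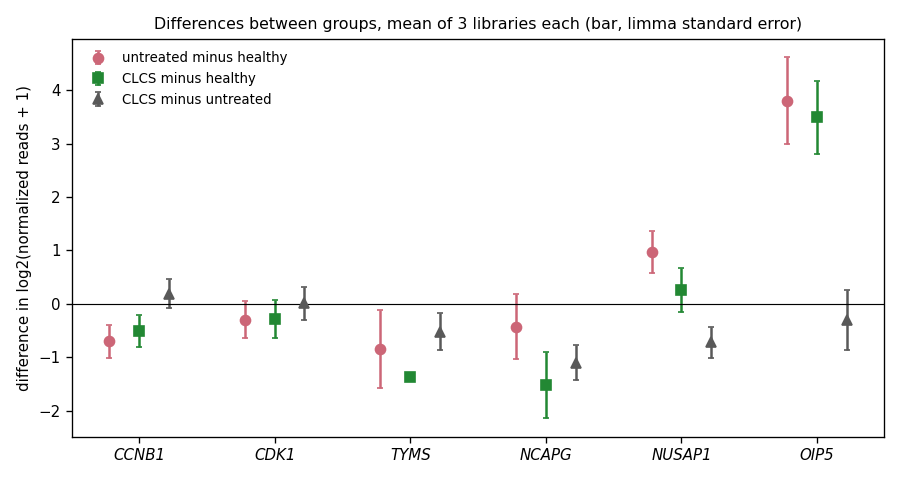
Differences between group means of log2(normalized reads + 1) for the 6 genes (vertical axis), with 3 libraries in each group. Circles, squares and triangles mark untreated minus healthy, CLCS minus healthy and CLCS minus untreated, and bars are standard errors from limma, with none for TYMS in CLCS minus healthy; OIP5 stands at 3.80 and 3.49 over healthy while the other 5 genes lie between -1.53 and 0.97.

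Across the 6 genes no common direction was seen. Relative to healthy cartilage, the untreated group was without overlap lower for CCNB1 and higher for NUSAP1 and OIP5, which makes 3 of the 6, beside 22% of the 3496 genes tested in that comparison. The CLCS group was apart from healthy for OIP5 of the 6, beside 24.2% of 3294 genes, and apart from the untreated group for NUSAP1 and NCAPG, both lower in CLCS defects, beside 8.34% of 3275 genes. At an adjusted p under 0.05 (limma, Benjamini-Hochberg over all tested genes), 0 of 6 were called in untreated against healthy tissue, where 2.55% of all tested genes were called. In CLCS against healthy tissue OIP5 was called out of 5 tested, where 3.16% were called. OIP5 passed the filter on low reads through the defect groups, and since the contrasts had served to choose the genes nothing is read from these counts. In CLCS against untreated tissue 0% of genes were called with limma, edgeR or DESeq2, 95 genes having an unadjusted p under 0.05. Both comparisons with healthy tissue share the same 3 healthy libraries.

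Healthy replicate 2 stood apart within its group. It was the lowest of the 3 healthy libraries for 5 of the 6 genes, and CDK1, for which it was the highest, made the exception. The 6 genes together had 202, 89 and 226 reads, not scaled for library size, in the healthy replicates, 224, 162 and 336 in the untreated replicates, and 179, 123 and 128 in the CLCS replicates. Without OIP5 the summed normalized reads were 180, 89.3 and 194 in the healthy, 112, 114 and 96.1 in the untreated and 81.6, 69.9 and 94.6 in the CLCS replicates. On this scale the CLCS libraries lay below the untreated ones, CLCS replicate 3 and untreated replicate 3 being close, and healthy replicate 2 lay within the CLCS range. This order of CLCS and untreated libraries depends on leaving out OIP5, whose values were known. With OIP5 added these groups overlapped, since it had 103 normalized reads in CLCS replicate 1 and 48.0 in untreated replicate 2. The sum also includes NCAPG and NUSAP1, already described as lower in CLCS than in untreated tissue, so it adds no separate evidence. Leaving out healthy replicate 2 brought the ratio of CLCS to healthy means to 0.610 for CCNB1, 0.194 for TYMS, 0.204 for NCAPG and 0.938 for NUSAP1, from 0.689, 0.269, 0.278 and 1.15 with all libraries. The corresponding ratios for untreated tissue were 0.529, 0.296, 0.440 and 1.54, from 0.597, 0.412, 0.598 and 1.89.

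OIP5 and NUSAP1 are neighbours in the rabbit genome, adjacent within 1000 bases of each other in the RefSeq annotation of assembly mOryCun1.1, and the annotated long noncoding RNA LOC138843213 overlaps OIP5. The strand setting of the read counting is not given in the sources used here, so reads of OIP5 and of a transcript that overlaps it cannot be told apart. The reads of OIP5 per read of NUSAP1 were 0.846, 0.143 and 0.5 in the healthy replicates, 2.83, 1.85 and 8.21 in the untreated replicates, and 7.14, 4.73 and 3.25 in the CLCS replicates. All 6 defect libraries lay above all healthy libraries in this ratio, and the untreated and CLCS ranges overlapped. The healthy ratios rest on 11, 1 and 11 OIP5 reads. OIP5 had been selected on these same values, so the ratio restates its difference and adds no separate evidence. Since the genes differ in length, only the comparison of the ratio between libraries can be read. NCAPG has DCAF16 within 1000 bases, which is not listed by symbol, and TYMS and NCAPG have ENOSF1 and LCORL a little farther off, each with at most 1 normalized read in any library. CCNB1 and CDK1 have no annotated neighbour within 1000 bases.

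**Figure D3:**
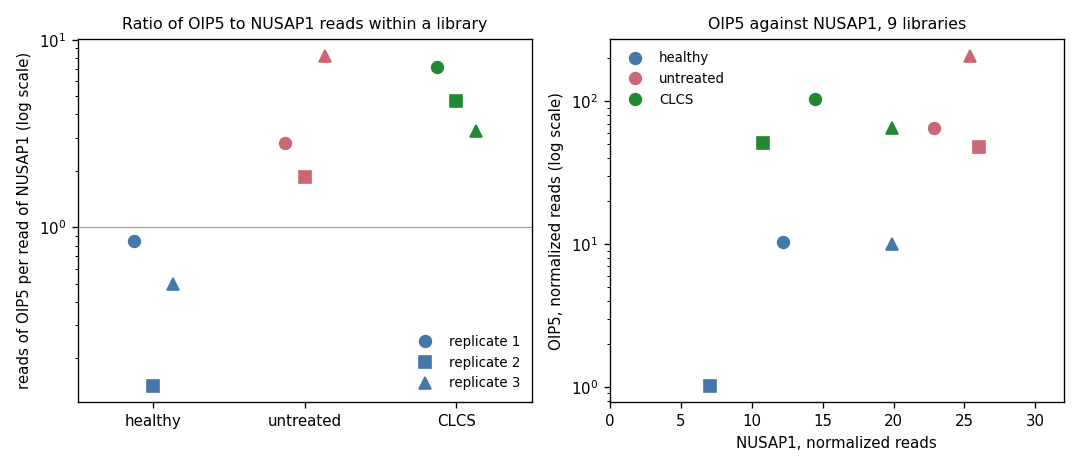
OIP5 beside its genomic neighbour NUSAP1 in the 9 libraries, with colour for group and symbol for replicate. Left, reads of OIP5 per read of NUSAP1 on a log axis, at most 0.846 in healthy and at least 1.85 in defect tissue, the healthy ratios resting on 11, 1 and 11 OIP5 reads. Right, normalized reads of OIP5 (log axis) against those of NUSAP1 (linear axis).

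Other genes of the cell division machinery were drawn from 8 lists by role with 211 genes, of which 157 were listed by symbol. Most had few reads, since 67 of the 157 had at most 3 reads in every library, 56 had a read in all 9, and the median over genes of the mean level was 1.55 normalized reads. In untreated against healthy tissue 36 could be tested and 0 were called with limma, 6 having an unadjusted p under 0.05, with edgeR calling 0 and DESeq2 1. Of these 36, 23 had a positive and 13 a negative difference, beside 48.5% positive among all genes tested. The median was 0.25 against -0.02 over all genes tested, and the lean towards positive differences was not tested. From healthy tissue 8 were apart (6 above, 2 below), a share of 22.2% beside 22% of all genes tested. The share of all genes with an unadjusted p under 0.05 was 16.6%, so neither the count apart nor the count under 0.05 stood out from all genes. In CLCS against healthy tissue 34 could be tested and 1 rose (edgeR 1, DESeq2 2), with 21 positive and 13 negative differences, beside 44.9% positive among all genes. The median was 0.28 against -0.08 over all genes, and 10 were apart from healthy (7 above, 3 below). The shares were 2.94% called beside 3.16% of all genes tested, and 29.4% apart beside 24.2%. In CLCS against untreated tissue 0 of 35 were called (edgeR 0, DESeq2 0) and 0 had an unadjusted p under 0.05, with a median of 0.03 against -0.00 over all genes and 3 apart, which is 8.57% beside 8.34% of all genes.

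Among the condensin and cohesin genes, which include the partners of NCAPG, NCAPH2 was the gene that rose. NCAPH2, the kleisin subunit of condensin II, had 40.5, 90.3 and 41.6 normalized reads in healthy tissue, 102, 153 and 292 in untreated and 173, 199 and 200.5 in CLCS defects. Both defect groups lay above healthy tissue without overlap, with a log2 difference of 1.81 (SE 0.37) and an adjusted p of 0.0487 (limma) in CLCS and 1.61 (SE 0.50) and 0.154 in untreated defects. This call was lost when any 1 library other than healthy replicate 2 was left out, and with a pseudocount of 0.5 the adjusted p (limma) was 0.0541. NCAPD2, which joins NCAPG in condensin I, had 169, 119 and 250 normalized reads in healthy tissue, 67.7, 38.0 and 116 in untreated and 61.0, 78.7 and 166 in CLCS tissue. The untreated libraries lay below the healthy ones with a log2 difference of -1.34 (SE 0.48, adjusted p = 0.213, limma) and the CLCS libraries overlapped with them at -0.88 (SE 0.46, adjusted p = 0.374). Of the remaining condensin I subunits, SMC4 had a log2 difference of 0.81 in untreated against healthy tissue (adjusted p = 0.435, limma), NCAPH had at most 6.35 normalized reads in any library, and SMC2 was at 0 in 8 of 9 libraries.

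Of the centromere and kinetochore genes, 10 could be tested in untreated and 9 in CLCS against healthy tissue, and limma called 0 in either, with 2 and 0 at an unadjusted p under 0.05. HJURP, the CENP-A chaperone that follows the MIS18 complex, had at most 9.84 normalized reads in any library and was not tested, and MIS18A was not listed by symbol. CENPT, a scaffold of the inner kinetochore, was apart from healthy in untreated tissue at 1.29 (SE 0.39, adjusted p = 0.146, limma) and overlapped with it in CLCS tissue at 0.99. ZWILCH, a subunit of a kinetochore checkpoint complex, had 758 normalized reads in untreated replicate 3 and 66.0 in CLCS replicate 3 against 1.01 to 17.2 elsewhere, and its log2 differences of 2.49 and 1.59 were 0.36 without untreated replicate 3 and 0.76 without CLCS replicate 3. Untreated replicate 3 was also the library with the most OIP5 reads.

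Of the cyclins and their kinases 4 genes and of their inhibitors 3 could be tested against healthy tissue. Limma called 0 of them, with 1 cyclin in untreated and 2 of the cyclin list in CLCS tissue at an unadjusted p under 0.05. CCNE2, a cyclin of the start of DNA replication, had 17.0, 13.2 and 22.6 normalized reads in healthy tissue, 4.73, 10 and 6.35 in untreated and 10.3, 9.84 and 2.49 in CLCS tissue. Both defect groups lay below healthy tissue without overlap, with log2 differences of -1.23 (SE 0.36, adjusted p = 0.138, limma) and -1.27 (SE 0.50, adjusted p = 0.247). CCNF, a cyclin that serves a ubiquitin ligase, was higher than healthy without overlap in CLCS tissue at 0.82 (SE 0.33, adjusted p = 0.26, limma) and overlapped with it in untreated tissue at 0.75. PKMYT1, which inhibits CDK1 by phosphorylation, averaged 1.73 times its healthy level in untreated and 1.76 times in CLCS tissue, and healthy replicate 2 at 333 normalized reads lay within the range of the defects. Without that library the ratios were 3.77 and 3.84, and PKMYT1 was called in CLCS tissue. The inhibitors CDKN2B and CDKN1A had log2 differences of 0.86 and 0.46 in untreated and 0.93 and -0.27 in CLCS tissue, with overlapping groups. Without healthy replicate 2, those of CDKN2B were 0.12 and 0.19 and those of CDKN1A were 1.19 and 0.47. CCNB2, the other B-type cyclin listed, had at most 2.03 normalized reads in any library, and CCNA2 was not listed by symbol.

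In the replication list, which holds the pathway of TYMS, 9 of 42 listed genes could be tested and limma called 0 against healthy tissue, with 0 at an unadjusted p under 0.05. MCM10, an initiator of replication forks, lay below healthy tissue without overlap in CLCS defects at -0.77 (SE 0.33, adjusted p = 0.287, limma) and overlapped with it in untreated defects at -0.33. CDT1, which licenses replication origins, had log2 differences of 0.85 and 0.84 with overlapping groups, and of 1.46 and 1.45 without healthy replicate 2. The sliding clamp PCNA had 1.01 to 3.61 normalized reads in healthy, 3.63 to 7.88 in untreated and 2.07 to 6.23 in CLCS tissue. The topoisomerase TOP2A, which untangles chromosomes, had at most 8.16, and neither of them passed the filter.

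The spindle and cytokinesis lists had 3 tested genes each and limma called 0, with 1 gene, KIF20B, at an unadjusted p under 0.05 in CLCS against healthy tissue. KIF15, a spindle motor, had log2 differences of 0.16 and 0.04, and HAUS6, which nucleates spindle microtubules, of 0.09 and 0.69. KIF20B and PRC1, which act when the cell is cut in 2, were higher than healthy without overlap in CLCS defects at 1.26 (SE 0.38, adjusted p = 0.135, limma) and 0.56 (SE 0.28, adjusted p = 0.351). MKI67, the antigen used to stain proliferating cells, had 2.83, 0 and 2.71 normalized reads in healthy, 7.09, 2 and 28.1 in untreated and 9.30, 5.90 and 8.72 in CLCS tissue. Its CLCS libraries lay above its healthy ones, untreated replicate 3 was the highest, and it had too few reads to be tested.

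**Figure D4:**
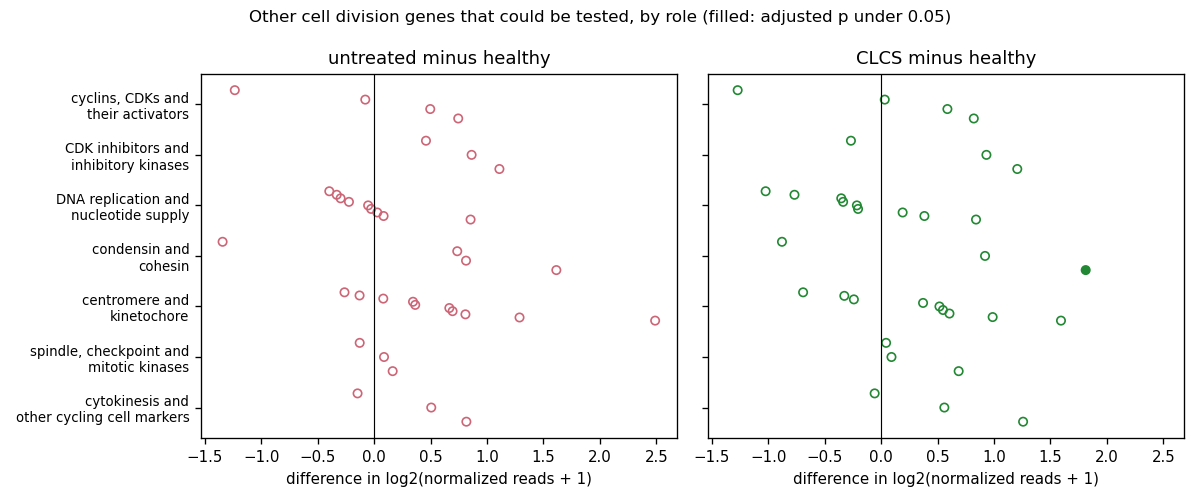
Differences in log2(normalized reads + 1) from healthy cartilage (horizontal axis) for the other cell division genes that could be tested, by role, in untreated (left, 36 genes) and CLCS defects (right, 34 genes). Each circle is a gene and a filled circle has an adjusted p under 0.05 (limma); NCAPH2 at 1.81 in CLCS defects is the filled one.

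Markers of other cell types differed between the same groups. The fibroblast list, 9 of 9 listed, summed to 508 to 1038 normalized reads in healthy, 1717 to 4894 in untreated and 2416 to 3963 in CLCS tissue. COL1A1, COL1A2 and POSTN were called higher in both defect groups, which makes 3 of the 6 tested in each comparison. DCN, PDGFRA and FAP of the same list had lower means in both defect groups, and none of them was called. DCN averaged 171 in healthy, 28.7 in untreated and 33.5 in CLCS tissue, with overlapping groups. The osteoblast sum, 8 of 9 listed with RUNX2 absent, was 308 to 921, 986 to 2984 and 1864 to 2430, with IBSP called higher in CLCS tissue. The osteoclast sum, 7 of 8 listed, was 6.32 to 34.9, 68.9 to 164 and 47.3 to 165, and the monocyte and macrophage sum, 10 of 12 listed, 58.9 to 67.8, 69.0 to 279 and 93.4 to 108, with TYROBP called higher in CLCS tissue. Of the macrophage list, AIF1 lay below healthy without overlap in both defect groups, and CSF1R lay above it. As with OIP5, the defect sums of these 4 lists lay above the healthy ones in every library, and their part in the result was not tested. Of the chondrocyte list CILP fell in both defect groups.

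The remaining lists had low or overlapping sums, except that the lymphocyte sum was smaller in every CLCS library than in every healthy one. The low skeletal muscle sum was smaller in every defect library than in every healthy one. Lymphocyte markers, 6 of 11 listed, summed to 105 to 124 normalized reads in healthy, 78.0 to 122 in untreated and 83.4 to 98.2 in CLCS tissue. Skeletal muscle markers, 6 of 8 listed, summed to 13.2 to 47.0, 5.44 to 9.45 and 5.90 to 10.3, and endothelial markers, 7 of 8 listed, to 1.81 to 5.65, 4.53 to 11.0 and 4.98 to 16.5. Dividing cells of marrow or blood had few markers here, with MPO and ELANE of the neutrophil and marrow list and HBB and HBA1 of the erythroid list not listed by symbol. The 6 marrow genes listed summed to 3.63 to 9.84 over all libraries and the 4 erythroid genes to 10.9 to 29.97.

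The genes whose profile over the 9 libraries was most like the mean profile of the 6 were PNPT1, KIAA1143, RBM28, NAA25 and MRPS27, among 3112 genes compared. Their Pearson coefficients over these 9 libraries, which share their normalization, were 0.936, 0.898, 0.897, 0.896 and 0.895. PNPT1, an RNA-degrading enzyme of mitochondria, had 8.48, 4.06 and 14.5 normalized reads in healthy, 11.8, 12 and 13.6 in untreated and 8.27, 7.87 and 9.96 in CLCS tissue, and was lowest in healthy replicate 2. The 6 genes did not follow their own mean profile alike, with coefficients of 0.86 for NUSAP1, 0.65 for NCAPG, 0.58 for TYMS, 0.56 for OIP5, 0.03 for CCNB1 and -0.52 for CDK1.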

How the data were processed

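Total RNA of cartilage was poly(A)-selected and sequenced in 9 libraries. The authors aligned reads to oryCun2.0 with TopHat and Bowtie, counted unique alignments per gene with eXpress, and divided the counts by DESeq2 size factors. The deposited values are this normalized signal, in 2 tables that hold the same healthy columns. Whole reads were recovered for 100% of values in each library (tolerance 0.001 read), and edgeR and DESeq2 on those reads served as alternatives.

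Genes were filtered with filterByExpr of edgeR 4.0.16 on the reads of the groups compared and tested with limma 3.58.1 in R 4.3.3 on log2(normalized reads + 1), Benjamini-Hochberg adjusted over all genes tested, with an adjusted p under 0.05 as threshold, in separate fits for each pair of groups. Fold changes on this scale understate those of low genes. The pipeline was tested on simulated data. Alternatives were pseudocounts of 0.5 and 2, no filter, at least 10 reads in 3 libraries, log2 CPM with TMM scaling, edgeR, DESeq2 1.42.0, 1 fit over 9 libraries, a replicate block and leaving out each library.

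The members, gene lists and tests were chosen with earlier results of these data known. Besides the 6 genes, named genes were those called in any comparison, the 2 tested genes per list with the largest mean difference from healthy, a fixed set of partners and proliferation genes, the 5 genes of most alike profile, and neighbours. Deviations from the group means were correlated between samples with the same number. The correlations were 0.25, 0.33 and 0.30 between CLCS and untreated defects and 0.28, 0.14 and 0.19 between CLCS and healthy tissue. Between untreated and healthy tissue they were 0.29, 0.13 and -0.04. Samples of unlike number were not compared, so these values cannot decide whether the numbers pair samples. The values printed come from the fits without a block, and the block is an alternative. Their SEs and p-values take no account of a pairing within rabbits, which the scheme of the study draws and the labels do not state. The 10 marker lists served to describe the tissue. A gene that the rule named is not reported here. Sequences were not used here.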

Additional observations from a re-analysis of the deposited data

How the results depend on the processing

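For the 6 genes, 254 alternative values were computed and all moved by less than the SD between replicates. That SD includes every library, so leaving out 1 library of a group could not move a value beyond it. The changed filters, the 1 fit over 9 libraries and the replicate block leave the log2 difference itself as it was. The count therefore does not show that the values are stable. A sign changed in 7 of the 254 values, each when 1 library was left out. The range of the log2 difference from healthy over all settings was -0.90 to -0.57 for CCNB1, -1.65 to -0.18 for TYMS, -1.15 to 0.04 for NCAPG, 0.63 to 1.31 for NUSAP1 and 2.97 to 4.22 for OIP5 in untreated defects. In CLCS defects it was -2.25 to -1.06 for NCAPG, -0.09 to 0.59 for NUSAP1 and 2.67 to 3.92 for OIP5. Of the other cell division genes, 1 (NCAPH2) was called in untreated against healthy tissue with DESeq2, in place of 0. In CLCS against healthy tissue the count of 1 became 0 with a pseudocount of 0.5, without a filter and in 1 fit over 9 libraries, and 2 with DESeq2 (NCAPH2 and NCAPD3), and it ranged from 0 to 2 when 1 library was left out, with 2 (NCAPH2 and PKMYT1) without healthy replicate 2. The adjusted p of NCAPH2 (limma) was 0.181 without a filter and 0.0611 in 1 fit over 9 libraries. Signs turned when 1 library was left out for CDKN1A (-0.17 to 1.19 in untreated, -0.89 to 0.47 in CLCS), KIF15 (-0.0058 to 0.35 and -0.16 to 0.28) and HAUS6 (-0.22 to 0.36 in untreated tissue), and the cause was not tested. The replicate block left the counts of these genes at 0, 1 and 0, and over all genes gave 94, 125 and 0 in place of 89, 104 and 0. Over all genes the count of 89 in untreated against healthy tissue ranged from 2 to 7 and that of 104 in CLCS tissue from 0 to 81 when 1 library was left out, and DESeq2 gave 275 and 243, so the shares called depend on these choices. Low reads limit all comparisons, and most of the cell division genes could not be tested.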

Other observations

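Most listed transcription regulators of the cell cycle had few reads at the depth of these libraries. Of 21 genes of the E2F, RB and DREAM group 16 were listed by symbol, 10 of these had at most 3 reads in every library and 0 could be tested. TFDP2, the highest of them by mean and chosen after its values were seen, had 1.88 to 12.2 normalized reads. CDK4, the kinase that acts on RB, was the highest gene of the cyclin and kinase list at 1188 to 1746 normalized reads in healthy, 1743 to 2424 in untreated and 2015 to 2691 in CLCS tissue, with CLCS above healthy without overlap and a log2 difference of 0.59 (SE 0.29, adjusted p = 0.353, limma). NCAPD3, a condensin II subunit, had 272 to 341 normalized reads in healthy, 421 to 576 in untreated and 483 to 691 in CLCS tissue, so that both defect groups lay above healthy tissue as they did for NCAPH2. Its log2 differences were 0.74 (SE 0.28, adjusted p = 0.245, limma) and 0.92 (SE 0.28, adjusted p = 0.141). CDK4 and NCAPD3 were also chosen after their values were seen.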
